A study of Caenorhabditis elegans with 10 samples.

Results

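The 31 genes described here build the presynaptic terminal of Caenorhabditis elegans neurons. Some form the machinery that fuses vesicles with the membrane, others make or load transmitters, and others process neuropeptides. They were taken by name from what is known of the synapse, at a time when earlier results of these data were known. Each was found through the gene symbol annotated to each probe set, a group of short DNA probes that reads a transcript. All 31 had at least 1 probe set, among 17118 genes with a probe set of a single symbol. Each gene is given by its brightest probe set, judged by the mean of all arrays. There were 56 probe sets for the 31 genes, and 19 genes had more than 1.

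A neuron releases transmitter when a synaptic vesicle, carried to the terminal by kinesin and held at the active zone, fuses with the plasma membrane. Fusion needs the SNARE proteins synaptobrevin, SNAP-25 and syntaxin, with UNC-18 and UNC-13 preparing them, and calcium entering through voltage-gated channels triggers it. Each transmitter has its own enzymes and vesicular transporter, while neuropeptides are cut from precursors inside dense-core vesicles. C. elegans uses these systems to adjust locomotion, feeding and egg laying to food.

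Total RNA was taken from whole adults of 4 groups: mek-1 mutants fasted (3 arrays), mek-1 mutants fed (3 arrays), mlk-1 mutants fasted (2 arrays) and mlk-1 mutants fed (2 arrays). Synchronized animals were moved on adult day 2 to a plate with the Escherichia coli food strain OP50-1 (fed) or to one without food (fasted), and were collected 2 days later, on adult day 4. The kinase MLK-1 activates MEK-1 in a stress pathway of the JNK family. Every group carries a mutation in one of these kinases, and a wild-type strain was not analysed here. The labels give no allele and do not say whether arrays came from separate cultures, so p-values measure only the spread between these samples, which may be technical.

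Values are linear intensities, 1 per probe set and array, with array medians between 70.5 and 74.9. Differences were computed on log2(intensity + 16), which compresses changes of dim probe sets. Tests are two-sided limma tests with Benjamini-Hochberg adjustment over 22548 probe sets and a threshold of 0.05, and each difference is given with its standard error (SE). As a check of the strain labels, the mek-1 transcript read between 66.5 and 139 on all 6 mek-1 arrays and between 1137 and 1387 on all 4 mlk-1 arrays. The mlk-1 transcript overlapped between the strains, at 128 to 197 on mek-1 arrays and 167 to 232 on mlk-1 arrays. Which stretch of mlk-1 the mutation affects is not in the labels, so this checks nothing about the mlk-1 strain.

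The RNA came from whole animals, in which neurons are a small part of the tissue, and fewer cells of a type and less RNA per cell cannot be told apart. Among 14 neuronal markers outside the synapse, 0 passed the limma test for fasting in either direction. At an unadjusted p under 0.05 there were also 0, and the median difference was -0.00. These markers were rgef-1, unc-119, unc-33, unc-44, unc-51, unc-14, unc-7, unc-9, maco-1, ric-7, unc-86, mec-7, mec-12 and tbb-4. Several of them, such as mec-7 and mec-12, mark only some neurons. Their summed intensity was 2349 to 2399 on fasted and 2368 to 2675 on fed mek-1 arrays, and 2151 to 2223 on fasted and 2108 to 2254 on fed mlk-1 arrays. Of 14 measured intestinal markers 8 fell and 1 rose, of 18 body wall muscle markers 5 fell and 0 rose, and of 10 epidermal markers 1 fell and 0 rose. Over all genes 4.03% fell and 4.21% rose past the threshold. Taken by strain, 5 muscle markers fell in mek-1 (median -0.88) and 0 in mlk-1 (median -0.10), and 0 passed for the difference of these effects. Of 18 germline, 8 sperm and 10 pharyngeal markers 0 passed in limma (2, 0 and 0 at an unadjusted p under 0.05), with medians of 0.06, -0.04 and -0.06. The summed intestinal intensity was 17706 to 19712 on fasted and 25435 to 31837 on fed mek-1 arrays, and 20341 to 20925 on fasted and 30278 to 35925 on fed mlk-1 arrays. The summed muscle intensity was 7876 to 9295 on fasted and 11244 to 20290 on fed mek-1 arrays, and 8156 to 8254 on fasted and 9302 to 9407 on fed mlk-1 arrays. The log2 ratio of 3′ to 5′ actin control probe sets, a sign of RNA integrity, was 1.51 to 1.78 on fasted and 1.06 to 1.45 on fed mek-1 arrays, and 1.38 to 1.69 on fasted and 1.46 to 1.56 on fed mlk-1 arrays. The ratio of the ubiquitin controls lay the other way in mek-1, at 0.65 to 0.75 on fasted and 0.81 to 0.96 on fed arrays, with 0.80 to 0.91 on fasted and 0.82 to 0.85 on fed mlk-1 arrays. That of GAPDH overlapped in mek-1, at 0.83 to 1.14 on fasted and 0.76 to 0.96 on fed arrays, and was 0.87 to 0.96 on fasted and 0.98 to 1.08 on fed mlk-1 arrays. The part of tissue makeup and of RNA integrity in the differences below was not tested.

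The first question was how 2 days without food changed the synaptic genes in both mutants, taken as the mean of the strain effects. The syntaxin-binding protein gene unc-18, the synaptobrevin gene snb-1 and ric-19, an ICA69 homolog of dense-core vesicle maturation, rose with fasting, and the glutamate decarboxylase gene unc-25, which makes GABA, fell. These 4 of 31 genes (3 higher, 1 lower) passed the threshold, against 8.23% of all 17118 genes (4.21% higher, 4.03% lower). At an unadjusted p under 0.05 in limma there were 10 of the 31, against 22.8% of all genes. The 31 genes were chosen with earlier results of these data known, so their counts are no independent test against the shares of all genes. The median difference of the 31 genes was 0.08 with 22 genes above 0 and 9 below, and that of all genes was 0.04. The median size of the difference was 0.09 in the 31 genes and 0.10 in all genes. The differences were small. They ran from -0.42 to 0.44, and 24 of the 31 were under 0.25 in size. The 95% interval of every one of the 31 lay within ±1, that is within a 2-fold change of intensity + 16. In dim genes the same difference stands for a larger change of intensity itself. Over all genes the differences ran from -4.65 to 4.46.

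**Figure D1:**
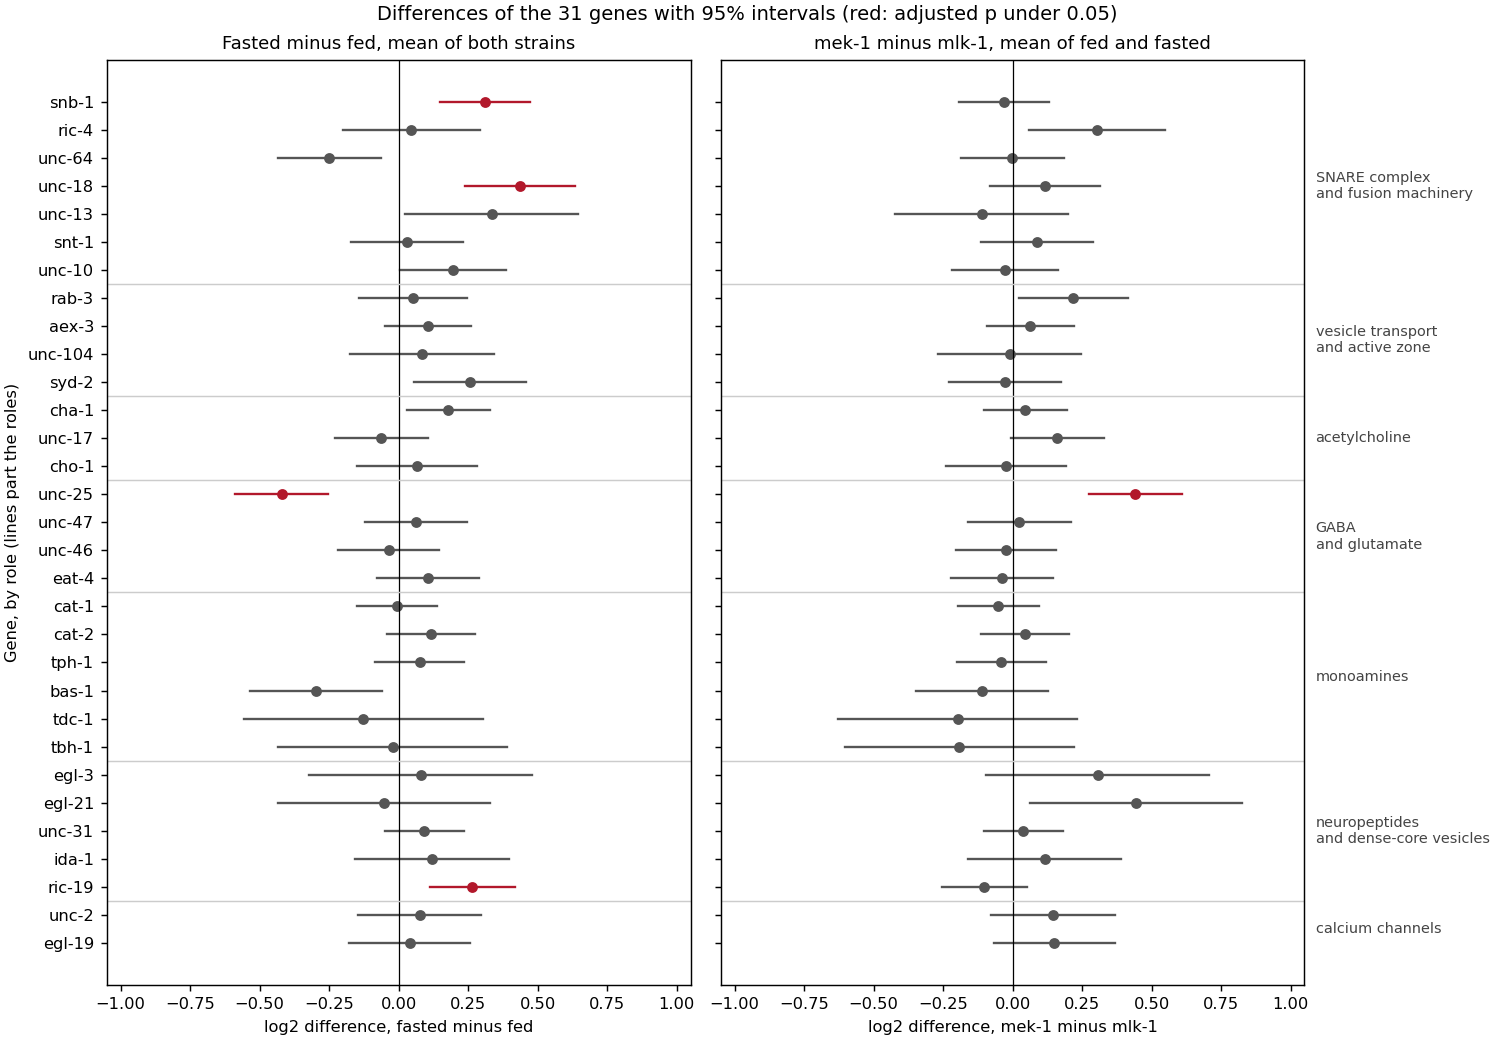
Differences of the 31 synaptic genes on log2(intensity + 16), as fasted minus fed (left, mean of both strains) and mek-1 minus mlk-1 (right, mean of fasted and fed), with 95% intervals from limma over 10 arrays. Genes run down the page by role, and the genes past an adjusted p of 0.05 are in red: snb-1, unc-18, unc-25 and ric-19 on the left and unc-25 alone on the right.

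The labels give array numbers without saying what they mark. Equal numbers were taken as pairs of fasted and fed samples within a strain, a pairing read from these same values. Calls that pass only with this pairing as a block rest on that reading. With the block 8 of the 31 genes passed, against 20.3% of all genes. Beside the 4 genes above these were unc-13 (adjusted p = 0.0206), syd-2 (adjusted p = 0.0344), bas-1 (adjusted p = 0.0282) and unc-64 (adjusted p = 0.0416). Fasted arrays lay above fed arrays in all 5 pairs for 5 genes (20.3% of all genes did so) and below in all 5 pairs for 2 genes (9.66% of all genes). Fasted arrays overlapped with no fed array in both strains for snb-1, unc-18 and cha-1, which were higher (7.59% of all genes), and for unc-25, which was lower (5.23% of all genes). Within mek-1 alone the fasted arrays lay above without overlap for 4 genes (12.6% of all genes) and below for 2 (9.36%). Within mlk-1 alone they lay above for 12 genes (29.4% of all genes) and below for 4 (16.5%).

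The gene unc-25 encodes glutamate decarboxylase, the enzyme that makes GABA for the motor neurons that relax body wall muscle. Its intensity was 66.6, 58.3 and 73.7 on the fasted mek-1 arrays, against 84.1, 78.6 and 95.4 on the fed ones. In mlk-1 animals it was 41.7 and 38.4 when fasted, against 65.9 and 63.6 when fed. Every fasted array lay below every fed array of its strain, and the fasted mlk-1 arrays were the lowest of all. The mean difference was -0.42 ± 0.07 (SE, 95% interval -0.59 to -0.25, adjusted p = 0.0104, limma), with fasted below fed in 5 of 5 pairs. It was -0.31 ± 0.09 in mek-1 animals (adjusted p = 0.108, and 0.0196 with the pairing as a block) and -0.53 ± 0.11 in mlk-1 animals (adjusted p = 0.0736, and 0.0125 with the block). The strain effects did not differ past the threshold (0.21 ± 0.15, adjusted p = 1.0). The call for the mean was lost without the second fasted mlk-1 array (adjusted p = 0.0588), and with a constant of 64 in place of 16 the difference was -0.26. With a constant of 1 the unc-25 difference was larger, at -0.53 (adjusted p = 0.00768, limma). The array has a single probe set for unc-25, whose intensity of 38.4 to 95.4 lies around the array medians.

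The other genes of GABA and glutamate did not pass. The vesicular GABA transporter gene unc-47 ranged from 41.8 to 57.1 over all arrays and differed by 0.06 ± 0.08 (95% interval -0.12 to 0.25). Its sorting partner unc-46, a LAMP-like protein gene, ranged from 30.8 to 44.97 and differed by -0.04 ± 0.08 (interval -0.22 to 0.14). The vesicular glutamate transporter gene eat-4 ranged from 29.7 to 44.8 and differed by 0.11 ± 0.08 (interval -0.08 to 0.29). All 3 lay below the array median on every array.

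**Figure D2:**
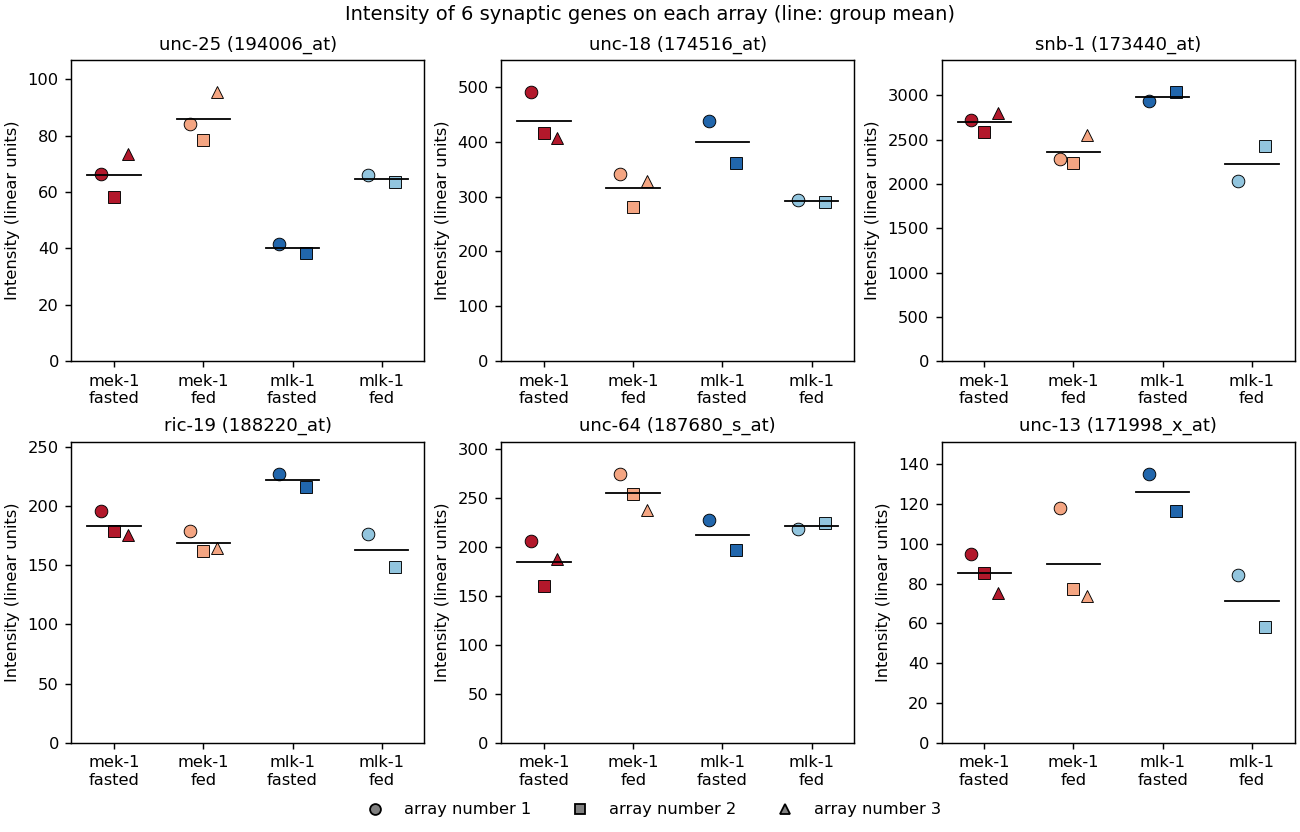
Linear intensity of unc-25, unc-18, snb-1, ric-19, unc-64 and unc-13 on each of the 10 arrays, by group from left to right (mek-1 fasted, mek-1 fed, mlk-1 fasted, mlk-1 fed), with the array number as the marker and the group mean as a line. The fasted unc-25 points lie below the fed ones in both strains, those of unc-18 and snb-1 lie above, and unc-13 differs by food in mlk-1 without overlap but not in mek-1.

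Of the 7 genes of the SNARE complex and its helpers 2 rose and 0 fell (4.21% and 4.03% of all genes), with a median difference of 0.20. At an unadjusted p under 0.05 in limma there were 5 of the 7, against 22.8% of all genes. Of the 7, 6 lay above 0 and unc-64 lay below, at -0.25. UNC-18 binds syntaxin and is needed for vesicle docking and fusion. The unc-18 intensity was 490.4, 416 and 406 on fasted mek-1 arrays, against 341, 281 and 328 on fed ones. In mlk-1 animals it was 439 and 361 when fasted, against 293 and 291 when fed. No fasted array fell within the range of the fed ones in either strain. The mean difference was 0.44 ± 0.09 (95% interval 0.24 to 0.64, adjusted p = 0.0189), higher in 5 of 5 pairs. The effect was 0.45 ± 0.11 in mek-1 (adjusted p = 0.0618, and 0.0145 with the block) and 0.43 ± 0.14 in mlk-1 (adjusted p = 0.223). The call was lost without the first fed (adjusted p = 0.062), the second fed (0.067) or the first fasted mlk-1 array (0.0782). A second unc-18 probe set differed by 0.15 ± 0.07 (adjusted p = 0.254), higher in 5 of 5 pairs as well.

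SNB-1 is synaptobrevin, the SNARE protein on the vesicle itself. The snb-1 intensity was 2721, 2585 and 2799 on fasted mek-1 arrays, against 2282, 2238 and 2551 on fed ones. In mlk-1 animals it was 2935 and 3035 when fasted, against 2031 and 2429 when fed. The groups did not overlap in either strain, although the third fed mek-1 array nearly reached the second fasted one. The mean difference was 0.31 ± 0.07 (95% interval 0.15 to 0.47, adjusted p = 0.0314), with 0.20 ± 0.09 in mek-1 (adjusted p = 0.289) and 0.42 ± 0.11 in mlk-1 (adjusted p = 0.132, and 0.0391 with the block). The call held without the third fed mek-1 array or the second fed mlk-1 array and was lost without any other single array, with adjusted p between 0.0545 and 0.12. It was also lost with quantile normalization (adjusted p = 0.0583) and with a constant of 1 (0.0522) or none (0.0552), and in all under 12 of 23 alternatives. The second snb-1 probe set, of a kind that can read several transcripts, differed by 0.07 ± 0.06 (adjusted p = 0.594), and over the mean of both probe sets the difference was 0.19 (adjusted p = 0.0835).

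Syntaxin, the product of unc-64, is the SNARE protein of the plasma membrane. Its intensity was 205, 159.6 and 187 on fasted mek-1 arrays, against 274, 253 and 237 on fed ones. In mlk-1 animals it was 228 and 197 when fasted, against 218 and 224 when fed. The mek-1 groups did not overlap and the mlk-1 groups did. The effect was -0.44 ± 0.10 in mek-1 (adjusted p = 0.0483), which made unc-64 the 1 gene of 31 past the threshold in that strain, against 4.88% of all genes (3.49% lower). It was -0.06 ± 0.13 in mlk-1 (adjusted p = 0.936), and the difference of these effects did not pass (-0.38 ± 0.16, adjusted p = 1.0). The mek-1 call was lost whichever single array was left out, with adjusted p between 0.0512 and 0.167, and in all under 16 of 23 alternatives, among them a trended and robust variance (0.12), the mek-1 groups alone (0.11), the lowest 30% of probe sets left out (0.0545) and a constant of 1 (0.0601) or none (0.0618). It passed with the block (0.0167). Its probe set can read several transcripts and is the only unc-64 set.

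UNC-13 primes docked vesicles for fusion. The unc-13 intensity was 95.05, 85.3 and 75.1 on fasted mek-1 arrays, against 118, 77.3 and 73.6 on fed ones. In mlk-1 animals it was 135 and 117 when fasted, against 84.4 and 58.4 when fed. The mek-1 groups overlapped and the mlk-1 groups did not. The effect was -0.04 ± 0.17 in mek-1 (adjusted p = 0.938) and 0.71 ± 0.21 in mlk-1 (adjusted p = 0.189, and 0.0175 with the block), and the effects differed by -0.75 ± 0.27 (unadjusted p = 0.0227, adjusted p = 1.0). The other unc-13 probe sets gave 0.08 ± 0.13 and -0.20 ± 0.12 in mek-1 and 0.75 ± 0.16 and 0.59 ± 0.15 in mlk-1. One of these passed for the mean of both strains (0.41 ± 0.10, adjusted p = 0.0448) and is the only further probe set of the 25 that did.

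The remaining genes of this group did not pass. The SNAP-25 gene ric-4 differed by 0.05 ± 0.11 (95% interval -0.20 to 0.29) and the synaptotagmin gene snt-1, the calcium sensor of fusion, by 0.03 ± 0.09 (interval -0.17 to 0.23). The RIM gene unc-10, which organises the active zone, differed by 0.20 ± 0.08 (adjusted p = 0.209). Its fasted mek-1 arrays read 75.6, 72.7 and 74.7, above the fed ones at 56.9, 55.02 and 70.5, while the mlk-1 groups overlapped at 66.4 and 80.8 fasted against 71.1 and 58.2 fed.

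Vesicle transport and the active zone were represented by 4 genes, with 0 past the limma threshold in either direction, 1 at an unadjusted p under 0.05 and a median difference of 0.09. Liprin-alpha, the product of syd-2, lays out the active zone. The syd-2 intensity was 109.8, 122 and 115 on fasted mek-1 arrays, against 82.6, 99.8 and 111 on fed ones, and 118 and 126 on fasted against 85.6 and 107.985 on fed mlk-1 arrays. It was higher in 5 of 5 pairs, at 0.26 ± 0.09 (adjusted p = 0.124, and 0.0344 with the block). A second syd-2 probe set gave 0.21 ± 0.10 (adjusted p = 0.27).

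The small GTPase gene rab-3 marks synaptic vesicles. The rab-3 intensity was 197, 215 and 251 on fasted mek-1 arrays, against 285, 224 and 254 on fed ones, and 232 and 216 on fasted against 178 and 181 on fed mlk-1 arrays. Fasted lay below fed in all 3 mek-1 pairs and above fed in both mlk-1 pairs. The effects were -0.19 ± 0.11 in mek-1 and 0.29 ± 0.13 in mlk-1, and their difference, -0.48 ± 0.17, did not pass (unadjusted p = 0.0213, adjusted p = 1.0). The second rab-3 probe set did not show opposite signs, at 0.15 ± 0.15 in mek-1 and 0.32 ± 0.19 in mlk-1. The kinesin gene unc-104, whose motor carries vesicle precursors along axons, differed by 0.08 ± 0.11, and aex-3, which encodes an exchange factor that activates RAB-3, by 0.11 ± 0.07.

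Acetylcholine is the main excitatory transmitter at worm muscle. Choline acetyltransferase, the product of cha-1, makes it, the product of unc-17 loads it into vesicles and the product of cho-1 takes up choline. The cha-1 intensity was 69.5, 61.9 and 71.9 on fasted mek-1 arrays, against 57.5, 50.9 and 60.4 on fed ones, and 59.2 and 67.2 on fasted against 54.95 and 56.4 on fed mlk-1 arrays. Fasted arrays were above fed arrays without overlap in both strains, yet the difference of 0.18 ± 0.07 did not pass (adjusted p = 0.149, 95% interval 0.03 to 0.33). The second cha-1 probe set gave 0.19 ± 0.07 (adjusted p = 0.145). The unc-17 difference was -0.06 ± 0.07 (95% interval -0.23 to 0.10), and that of cho-1 was 0.07 ± 0.10. The cha-1 and unc-17 transcripts come from a shared locus and share their first exon, and all their probe sets are of kinds that can read several transcripts, so signal could be split between them.

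The monoamine genes held 6 members with a median difference of -0.01, 0 past the limma threshold and 1 at an unadjusted p under 0.05. That gene was bas-1, the aromatic amino acid decarboxylase that completes dopamine and serotonin synthesis. The bas-1 intensity was 81.7, 75.6 and 67.2 on fasted mek-1 arrays, against 105, 113 and 75.4 on fed ones, and 89.6 and 76.8 on fasted against 101.1 and 107 on fed mlk-1 arrays. Fasted lay below fed in 5 of 5 pairs, at -0.30 ± 0.10 (adjusted p = 0.131, and 0.0282 with the block). The third fed mek-1 array fell below the first and second fasted arrays of that strain.

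The tyrosine hydroxylase gene cat-2, which starts dopamine synthesis, differed by 0.12 ± 0.07 (95% interval -0.04 to 0.27). The tryptophan hydroxylase gene tph-1, which starts serotonin synthesis, differed by 0.08 ± 0.07 (interval -0.08 to 0.24), and the vesicular monoamine transporter gene cat-1 by -0.01 ± 0.06 (interval -0.15 to 0.14). All 3 lay below the array median on every array, between 25.1 and 44.96. The genes of tyramine and octopamine synthesis, tdc-1 and tbh-1, differed by -0.13 ± 0.19 and -0.02 ± 0.18. Both are also known from the gonadal sheath, outside neurons.

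Among the 5 genes of neuropeptides and dense-core vesicles, with a median difference of 0.09, ric-19 rose and 0 fell. Of all genes 4.21% rose and 4.03% fell. The ric-19 intensity was 196, 179 and 176 on fasted mek-1 arrays, against 179, 162 and 165 on fed ones, which overlapped. In mlk-1 animals it was 227 and 216 when fasted, against 177 and 148 when fed, with no overlap. The mean difference was 0.27 ± 0.07 (95% interval 0.11 to 0.42, adjusted p = 0.0457), higher in 5 of 5 pairs. The effect was 0.11 ± 0.09 in mek-1 (adjusted p = 0.56) and 0.42 ± 0.10 in mlk-1 (adjusted p = 0.115, and 0.0332 with the block), and the effects differed by -0.31 ± 0.13 (unadjusted p = 0.0495, adjusted p = 1.0). The call held without the first fed mlk-1 array and was lost without any other single array, with adjusted p between 0.0531 and 0.152. It was also lost with a trended and robust variance (adjusted p = 0.162), without the lowest 30% of probe sets (0.0657) and with a constant of 1 (0.0689) or none (0.0717), and in all under 14 of 23 alternatives.

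The CAPS gene unc-31, needed for dense-core vesicle release, differed by 0.09 ± 0.06 (95% interval -0.05 to 0.24) at intensities of 20.4 to 28.5, near the lowest value of the arrays, 16. The IA-2 homolog ida-1 differed by 0.12 ± 0.12. The proprotein convertase gene egl-3 and the carboxypeptidase E gene egl-21, which cut and trim neuropeptide precursors, differed by 0.08 ± 0.18 and -0.05 ± 0.17. Of the calcium channel subunit genes, unc-2, the presynaptic channel, differed by 0.08 ± 0.10 and egl-19, an L-type channel that also serves muscle, by 0.04 ± 0.10. The 4 unc-2 probe sets ran from -0.02 to 0.19.

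Taken strain by strain, 1 of the 31 genes passed for fasting in mek-1 animals (unc-64) and 0 passed in mlk-1 animals in limma, where 1.47% of all genes did. At an unadjusted p under 0.05 there were 5 of the 31, against 12.5% of all genes. With the pairing as a block the counts were 3 in mek-1 (14.8% of all genes) and 4 in mlk-1 (6.16% of all genes). The difference of the strain effects passed in 0 of 31 genes, with and without the block (0.0701% of all genes without it), and 4 of the 31 had an unadjusted p under 0.05, against 3.77% of all genes: unc-64, unc-13, rab-3 and ric-19. In all 4 the effect in mek-1 lay below that in mlk-1. The 95% interval of the fasting effect lay within ±1 for 31 genes in mek-1 and for 30 in mlk-1, where unc-13 was the exception.

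**Figure D3:**
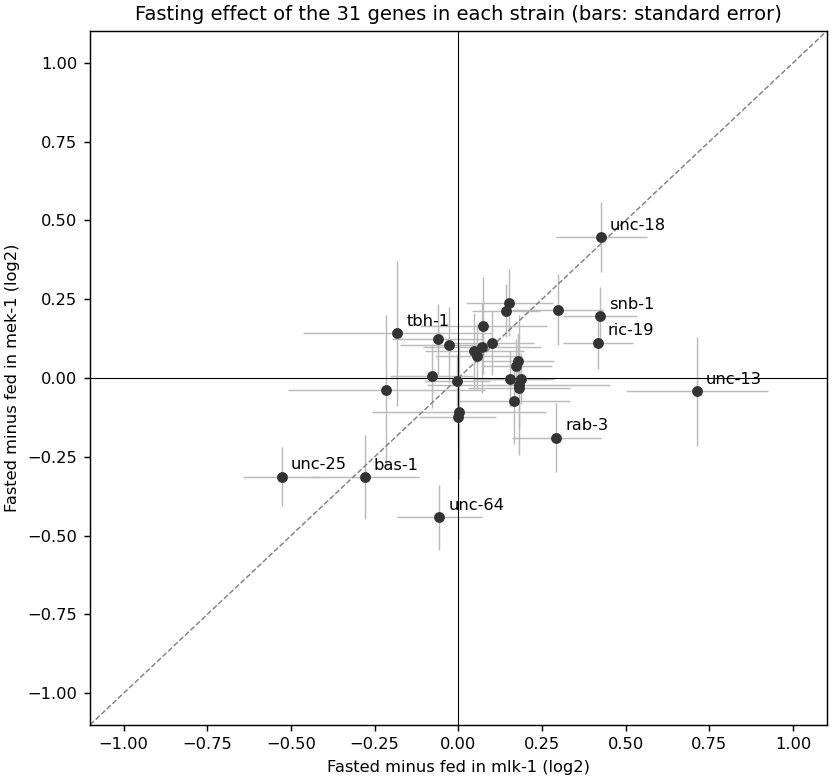
Fasting effect (fasted minus fed, log2) of each of the 31 genes in mek-1 animals (vertical axis) against mlk-1 animals (horizontal axis), with bars of 1 SE and a dashed line of equal effects. The genes unc-25 and unc-18 lie at like signs in both strains, unc-13 lies at -0.04 in mek-1 and 0.71 in mlk-1, and 0 genes passed the test of the difference.

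The second question was whether the strains differed. Averaged over food, 1 of the 31 genes passed, against 3.2% of all genes (0.613% higher in mek-1, 2.58% lower), and that gene was unc-25. Its intensities, given above, were higher on the mek-1 arrays than on the mlk-1 arrays without overlap, both fasted and fed. The difference was 0.44 ± 0.07 (mek-1 minus mlk-1, 95% interval 0.27 to 0.61, adjusted p = 0.0146). It was lost without the second fed (adjusted p = 0.0675), the first fasted (0.051) or the second fasted mlk-1 array (0.0832), and with a constant of 64 it was 0.27. In fasted animals alone unc-25 was again the 1 gene of 31 that passed (0.55 ± 0.10, adjusted p = 0.0423), against 1.57% of all genes (0.169% higher in mek-1). This call held without the third fed mek-1 array and was lost without any other single array, with adjusted p between 0.0502 and 0.311, and in all under 13 of 24 alternatives, among them a constant of 64 (0.32, adjusted p = 0.0667), the fasted groups alone (0.0806) and the lowest 30% of probe sets left out (0.0501). In fed animals 0 of 31 genes passed in limma (0.643% of all genes), with 3 of the 31 at an unadjusted p under 0.05 (8.7% of all genes), and unc-25 stood at 0.33 ± 0.10 (adjusted p = 0.306).

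The other GABA genes did not pass for strain. The difference of unc-47 was 0.02 ± 0.08 (95% interval -0.16 to 0.21) and that of unc-46 was -0.02 ± 0.08 (interval -0.21 to 0.16). Among tissue markers, the median strain difference was 0.54 over 18 body wall muscle markers (0.78 fed, 0.14 fasted) and 0.13 over the 14 neuronal markers. Over 10 epidermal markers it was 0.40, over 10 pharyngeal ones 0.25 and over 14 intestinal ones -0.15. Ciliated sensory neurons (18 markers) gave 0.02, germline (18) -0.01 and sperm (8) 0.05. In each of these lists 0 passed the threshold in limma. At an unadjusted p under 0.05 there were 9 muscle, 2 neuronal, 1 epidermal, 3 pharyngeal and 4 intestinal markers, against 14.2% of all genes. There were also 1 ciliated, 0 germline and 1 sperm marker. The part of tissue makeup in the unc-25 difference was not tested.

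The median strain difference of the 31 genes was 0.02 and that of all genes 0.00. The mek-1 arrays lay above the mlk-1 arrays without overlap in both food states for unc-25, egl-21 and unc-17 (2.72% of all genes), and 0 of the 31 lay below in this way (5.23% of all genes). The egl-21 intensity was 369, 357 and 604 on fasted and 468, 369 and 579 on fed mek-1 arrays, against 341 and 309 on fasted and 342 and 308 on fed mlk-1 arrays. Its difference of 0.44 ± 0.17 did not pass (adjusted p = 0.264), nor did those of ric-4 (0.30 ± 0.11, adjusted p = 0.233), unc-17 (0.16 ± 0.07, adjusted p = 0.381) and rab-3 (0.22 ± 0.09, adjusted p = 0.291).

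Both mek-1 arrays numbered 3, the fasted and the fed one, stood apart in several of these genes. They lay above the other mek-1 arrays of their food state in 14 of the 31 genes, or 45.2%, where 20.2% of all genes did so, and below in 5 genes, or 16.1%, where 29.2% of all genes did so. The neuropeptide-processing genes were among the high ones. The egl-21 intensity was 604 and 579 on the fasted and fed arrays numbered 3 and 357 to 468 on the other mek-1 arrays, and that of egl-3 was 465 and 436, against 260.3 to 394. The octopamine pathway was among the low ones. The tdc-1 intensity, of the tyrosine decarboxylase gene, was 991 and 910.5 on the arrays numbered 3 and 1361 to 1630.3 on the other mek-1 arrays, and that of tbh-1, the tyramine beta-hydroxylase gene, was 2470.4 and 1696, against 2653 to 3149. Without both arrays the egl-21 strain difference was 0.25 ± 0.09 (adjusted p = 0.208), that of egl-3 was 0.14 ± 0.14 rather than 0.31 ± 0.18, and that of tdc-1 was 0.03 ± 0.09 rather than -0.20 ± 0.19. The fasting calls of unc-25, unc-18 and snb-1 and the mean strain call of unc-25 held without both arrays. Those of ric-19 (adjusted p = 0.0637), unc-64 in mek-1 (0.0742) and unc-25 in fasted animals (0.0581) did not. Calls gained without both arrays were bas-1 for the mean fasting effect (-0.34, adjusted p = 0.0206) and unc-25 for fasting in mlk-1.

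**Figure D4:**
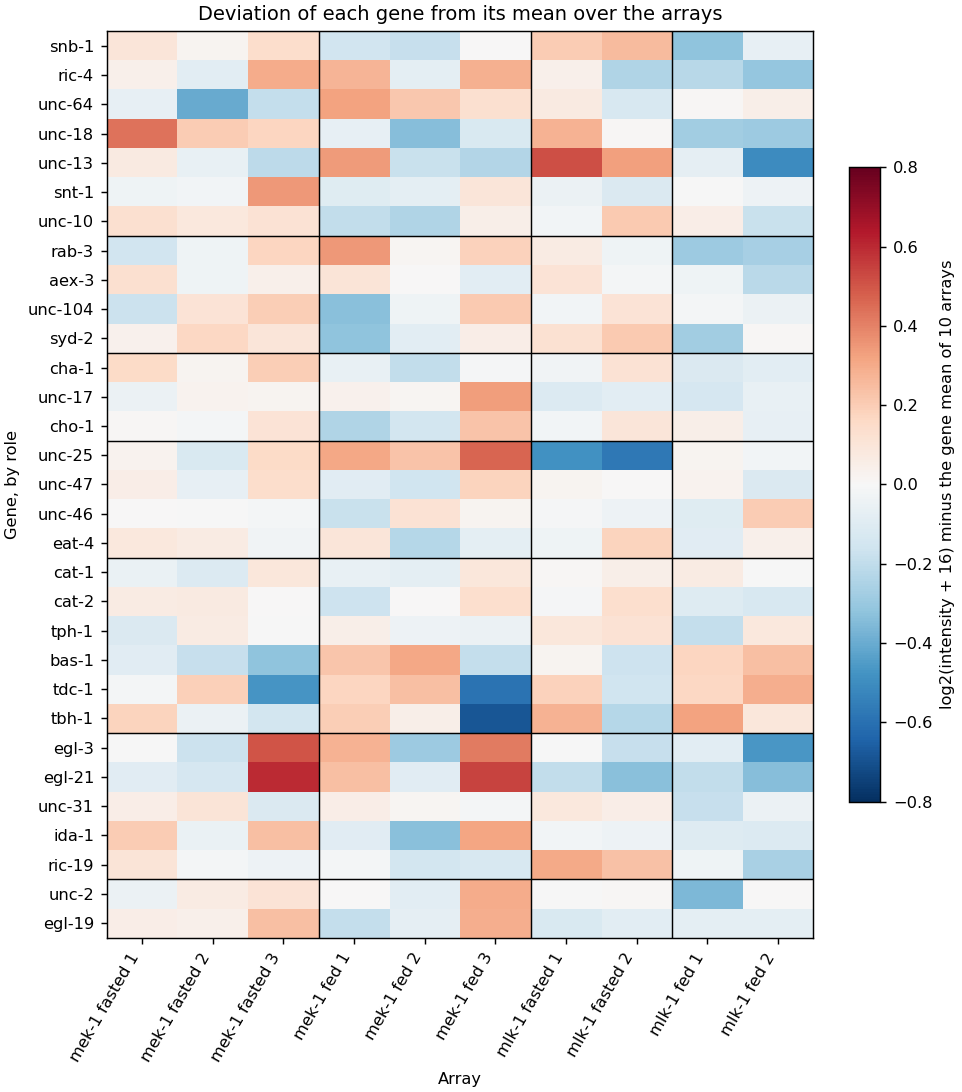
Deviation of each of the 31 genes (rows, by role) from its own mean over the 10 arrays on log2(intensity + 16), with 1 column per array, red above the mean and blue below. The columns mek-1 fasted 3 and mek-1 fed 3 share high egl-3 and egl-21 and low tdc-1 and tbh-1, and unc-25 is lowest on the fasted mlk-1 arrays.

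To set the 31 genes beside the rest of the synapse, 7 lists of other genes were read for the mean fasting effect. Over all genes 8.23% passed in limma and 22.8% had an unadjusted p under 0.05. Of 33 genes of the vesicle cycle, active zone and adhesion 0 passed in limma (3 at an unadjusted p under 0.05, median 0.03). Of 27 GABA and glutamate receptor genes 0 passed (6 unadjusted, median 0.06), as did 0 of 16 monoamine receptor genes (1 unadjusted, median 0.04) and 0 of 23 ion channel genes (2 unadjusted, median -0.00). Among 14 neuropeptide-processing genes 1 fell (median 0.07), among 35 acetylcholine receptor genes 1 fell (median 0.03), and among 24 genes of transmitter clearance and cofactors 1 rose and 1 fell (median 0.03). These 4 genes moved by more than any of the 31.

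The largest of them was eat-2, which encodes a nicotinic receptor subunit that pharyngeal muscle needs for fast feeding movements. Its intensity was 37.1, 33.9 and 37.2 on fasted mek-1 arrays, against 115, 102 and 121 on fed ones, and 43.96 and 41.04 on fasted against 109 and 151 on fed mlk-1 arrays. Fasted and fed arrays lay far apart in both strains. The difference was -1.30 ± 0.09 (adjusted p = 6.79e-05), a 2.47-fold decrease on this scale, with -1.30 ± 0.11 in mek-1 and -1.30 ± 0.14 in mlk-1. It passed under all 23 alternatives, with -0.84 at a constant of 64 and -1.59 at a constant of 1. Of 10 pharyngeal markers 0 passed for fasting in limma (0 also unadjusted), with a median of -0.06, and their summed intensity was 985 to 1494 on fasted and 1061 to 1734 on fed mek-1 arrays, and 961 to 1107 on fasted and 895 to 1126 on fed mlk-1 arrays.

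The proprotein convertase gene aex-5, which is also known from the intestine, read 72.6, 66.5 and 81.5 on fasted against 151, 134 and 121 on fed mek-1 arrays, and 80.7 and 78.2 on fasted against 105 and 136 on fed mlk-1 arrays, and fell by 0.63 ± 0.09 (adjusted p = 0.00395). Its fall stands beside that of 8 of 14 intestinal markers, and the part of the intestine in it was not tested. The plasma membrane glutamate transporter gene glt-5 read 73.9, 74.4 and 97.4 on fasted against 54.9, 41.6 and 40.0 on fed mek-1 arrays, and 71.1 and 76.3 on fasted against 35.99 and 45.4 on fed mlk-1 arrays. It rose by 0.67 ± 0.10 (adjusted p = 0.00551), or by 0.40 with a constant of 64 and 0.84 with a constant of 1. The vesicular glutamate transporter relative vglu-3 read 61.3, 51.7 and 86.9 on fasted against 163, 105 and 106 on fed mek-1 arrays, and 48.4 and 41.1 on fasted against 83.9 and 62.8 on fed mlk-1 arrays. It differed by -0.66 ± 0.16 (adjusted p = 0.037), a call lost without the first or second fasted mek-1 array or any single mlk-1 array (adjusted p between 0.0648 and 0.14) and with a constant of 64 (-0.43, adjusted p = 0.0634). In the strain comparison 1 gene of these lists passed, rimb-1, which encodes a RIM-binding protein of the active zone. It read 93.0, 111.9 and 90.5 on fasted and 92.8, 113 and 75.0 on fed mek-1 arrays, against 45.6 and 56.9 on fasted and 46.98 and 60.8 on fed mlk-1 arrays. The difference was 0.70 ± 0.12 (adjusted p = 0.0133), or 0.45 with a constant of 64, and the call was lost without the first fed (adjusted p = 0.0594) or the first fasted mlk-1 array (0.0671).

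**Figure D5:**
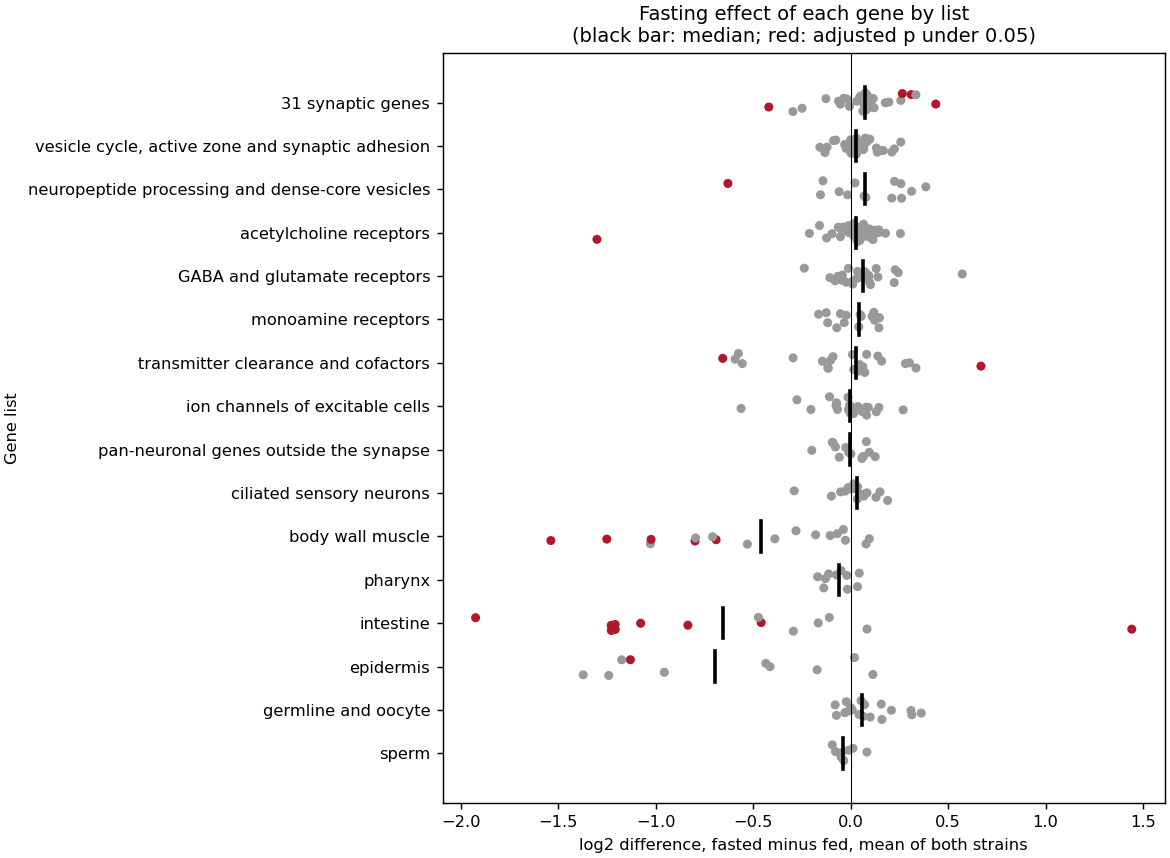
Fasting effect (fasted minus fed, mean of both strains, log2) of each measured gene by list, with the 31 synaptic genes on top, the 7 synaptic lists under them and then 8 lists of tissue markers, and with the list's median as a black bar. Genes past an adjusted p of 0.05 are in red, and the medians of intestine (-0.65), epidermis (-0.70) and body wall muscle (-0.46) lie below those of the neuronal lists.

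Of the 25 further probe sets of the 31 genes, 20 had the same sign of fasting effect as the probe set used. Among the 56 probe sets 29 are of kinds that can read several transcripts. Of the 31 genes 11 lay below the array median on every array, where small changes are harder to see, so a difference that did not pass there is not shown to be absent.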

How the data were processed

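Biotin-labelled RNA of 10 samples, made by 3′ IVT per the labels, was read on 1-colour arrays. The deposited values are linear intensity, 1 per probe set and array, as the authors summarised them, by a method not given in the sources used here. The lowest value was 16.0 and the highest 12763. The table holds 22625 probe sets, of which 77 controls were left out. Symbols came from GEO's platform annotation (20766 probe sets with 1 symbol, 887 with several, 895 with none). The design allowed for log2 values, and as the values were linear, log2(intensity + 16) was used. A limma model (version 3.58.1, under R 4.3.3) with a mean for each of the 4 groups used all arrays and left 6 residual degrees of freedom, to which the prior added 2.90. It gave 7 contrasts, and the code was tested on simulated data. Figures used matplotlib 3.10.9.

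All 31 genes are named. From each further synaptic list up to 4 genes past the threshold for the mean fasting effect and up to 2 for the mean strain difference are named, the largest changes first. The members and lists were chosen with earlier results of these data known. The number of arrays limits the precision, as does signal over background for dim probe sets.

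Whether array numbers pair fasted with fed samples was read from the correlation of deviations from the group means. Within mek-1 it was 0.44, 0.675 and 0.573 for equal numbers and -0.554 to -0.0226 for unequal ones. Within mlk-1 it was 0.352 for equal and -0.352 for unequal numbers. With 2 arrays per group these sizes are equal by construction, so only the sign carries information there. Deviations from a group mean sum to 0. With 3 arrays per group, in mek-1, values below 0 for unequal numbers thus follow in part from those above 0 for equal ones. The pairing thus comes from the data, since the labels give only the number. Alternatives were constants of 1, 64 and none, median centring, quantile normalization, a filter on the dimmest 30% of probe sets, array weights, a trended and robust variance, fits of only the compared groups, other choices of probe set, the replicate number as a block, and fits without each array or without the mek-1 arrays 3. No sequences are printed.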

Additional observations from a re-analysis of the deposited data

How the results depend on the processing

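Of the 31 genes, 4 passed for the mean fasting effect, and the count was 2 with a constant of 1 or none (losing snb-1 and ric-19), 3 with quantile normalization (losing snb-1), 3 without the lowest 30% of probe sets and 3 with a trended and robust variance (both losing ric-19), 4 with all probe sets of a gene averaged (syd-2 in place of snb-1), 6 with array weights (adding syd-2 and bas-1), 8 with the replicate block and 1 to 4 when each array was left out. It was 1 without the first (unc-25) or the second fasted mlk-1 array (unc-18), 4 without the third fed mek-1 array and 2 without each other single array. In mek-1, where 1 gene passed, the count was 0 with a constant of 1 or none, without the lowest 30% of probe sets, with a trended and robust variance, with the compared groups alone, without probe sets of the _s_at and _x_at kinds (which leaves unc-64 without a value) and without both mek-1 arrays numbered 3. It was 2 with median centring, 3 with array weights, 3 with the replicate block and 0 to 1 when each array was left out (1, then bas-1, without the third fed mek-1 array). In mlk-1, where 0 passed, it was 1 with median centring, array weights or no mek-1 arrays numbered 3, 4 with the replicate block and 0 to 1 when each array was left out (1, unc-25, without the third fed mek-1 array). The difference of the strain effects and the strain difference in fed animals stayed at 0 under every alternative run. For the mean strain difference the count of 1 became 0 to 1 when each array was left out. In fasted animals the count of 1 was 0 with a constant of 64, without the lowest 30% of probe sets, with the compared groups alone and without both mek-1 arrays numbered 3, and 0 to 1 when each array was left out. The cause of these changes was not tested. The 12 effects of named genes that passed in the report kept their sign under every alternative run. Signs of effects that did not pass were not followed under all alternatives, and some turned, as tdc-1 between strains did (0.03 without both mek-1 arrays numbered 3, against -0.20). Across strains equal numbers correlated at 0.326 and 0.157 (fasted) and 0.298 and 0.15 (fed), with only 2 shared numbers. The block over them changed no call in limma (unc-25 0.38, adjusted p = 0.00661, and 0.48 in fasted animals, adjusted p = 0.0123). Number 3 occurs only in mek-1, so this block gave the same mean strain differences as leaving out those arrays (unc-25 0.38, egl-21 0.25). For these differences it is no separate check. The pairing within strains changed no other call of the 31 genes than those given in the report. Dim probe sets near the lowest value limit what can be seen, 11 of the 31 genes lie below the array median on every array, and the mlk-1 groups hold 2 arrays each.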
